A study of Mus musculus with 9 samples.

Results

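The genes described here are 9 that are named together with quiescence of blood stem cells: the FoxO transcription factors Foxo1, Foxo3 and Foxo4, the thioredoxin inhibitor Txnip, the antiproliferative proteins Btg1 and Btg2, the cyclin Ccng2 and the Kruppel-like factors Klf2 and Klf6. They were chosen by name and not by their counts in these libraries, although results of these data were known when the set was drawn up. They are 9 of 24060 named rows of the count table, and all 9 passed the filter on low counts that 13355 genes passed and were tested.

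FoxO factors are forkhead proteins that sit at the end of the PI3K and AKT pathway. When growth factors activate AKT, the FoxO proteins are phosphorylated and leave the nucleus, and when AKT is quiet they enter it and switch on genes for cell cycle arrest, defence against reactive oxygen and cell death. In haematopoietic stem cells they are known for keeping the cells in a resting state. Txnip binds and inhibits thioredoxin and limits glucose uptake, Btg1 and Btg2 slow the cell cycle partly by recruiting deadenylases to messenger RNA, Ccng2 is a cyclin linked to arrest instead of cycle entry, and Klf2 and Klf6 are zinc finger factors, of which Klf2 is best known for quiescence of lymphocytes. Since FoxO activity is set largely by where the protein is in the cell, transcript levels do not measure it.

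RNA was sequenced from LSK cells, the lineage-low Sca1+ Kit+ fraction of bone marrow that holds stem and early progenitor cells, sorted as CD45.2 donor cells from lethally irradiated congenic CD45.1 recipients. The control group (n = 3) had C57BL/6 marrow, the NHD13 group (n = 2) had marrow with a NUP98-HOXD13 fusion transgene under Vav elements, a model of myelodysplastic syndrome, and the NHD13/MSI2 group (n = 4) had marrow with that transgene and a doxycycline-inducible MSI2 transgene at Col1A1 with the reverse transactivator at ROSA26. The labels give the strain as C57BL/6 and the age as 4 months for all 3 groups, and the design text describes 3 months of doxycycline feed for the mice. In the paper, 4 months is the time since transplantation, so the label need not be the age of the animals. Each library had 19242153 to 23013493 counts. The labels do not say whether the libraries of a group came from separate mice, so the p-values measure only the spread between these libraries. How much of that spread is technical is not known. The controls differed in Xist (below), so they were not all made from the same cells. Fewer cells of a type and less RNA per cell cannot be told apart in these sorted pools.

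Several libraries stood apart or went against their labels. Hoxd13 had 0 counts in the controls and 0.648 to 1.13 CPM (counts per 1000000 counts of the library, scaled by TMM factors) in the 6 libraries of the other groups. Msi2, the gene to be overexpressed, was at 268 ± 46.4 CPM (SD, n = 3) in control, 125 ± 19.9 (n = 2) in NHD13 and 122 ± 79.5 (n = 4) in the libraries labelled NHD13/MSI2, where replicate 4 was at 241 and the others at 77.1 to 88.0. The row thus shows no excess of Msi2 in that group over NHD13, and whether reads of the transgene were counted in it is not given in the sources used here, so each direction below rests on the label. Libraries labelled NHD13/MSI2 replicates 1 to 3 differed from each other by a chi-square per gene of 17.6 to 30.1, and from replicate 4 by 365 to 390. Control replicates 1 and 3 had Xist at 888 and 866 CPM and control replicate 2 had it at 2.33, while the other 6 libraries had 0.148 to 1.90 and carried Y-linked counts, so the sex of the cells and the group cannot be told apart in full. Among the controls, the submitters' library name of replicate 1 has the word Bulk and those of replicates 2 and 3 have MPP_HSC, which the labels do not explain. The word dox stands only in the library names of NHD13/MSI2, and the name of NHD13 replicate 2 has wt_het without NHD13. Whether control and NHD13 mice had doxycycline feed cannot be read from these names. The summed LSK markers were present in every library, at 4776 to 5225 CPM in the controls and lower, at 2823 to 3672, in the 6 others. Of the other lists, the summed monocyte and macrophage markers were at 300 to 375 CPM in control, 409 and 946 in NHD13 and 1258 to 1751 in NHD13/MSI2. B cell markers were at 45.9 to 58.3, 81.9 and 138, and 263 to 448 CPM in the same order, and megakaryocyte markers at 80.3 to 192, 90.8 and 583, and 9.74 to 37.1. T cell markers were at 39 to 50.7, 204 and 211, and 52.2 to 88.9 CPM, NK cell markers at 182 to 366, 46.1 and 66, and 39.4 to 44.8, and erythroid markers at 7.68 to 9.08, 1.14 and 2.48, and 0.0997 to 0.465, with Hba-a1, Hba-a2 and Hbb-b2 at 0 in every library. Neutrophil markers went the other way from the monocyte list, at 881, 2407 and 930 CPM in control replicates 1 to 3, 511 and 135 in NHD13 and 198 to 608 in NHD13/MSI2. Endothelial and stromal markers were at 201 to 259 CPM in control, 343 and 407 in NHD13 and 449 to 593 in NHD13/MSI2. The part of these lists in the results below was not tested.

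None of the 9 genes passed an adjusted p of 0.01 in any of the 3 comparisons or in the joint test of the 3 groups. The test was the quasi-likelihood F test of edgeR, and p-values were adjusted by Benjamini-Hochberg over the 13355 genes. Over all tested genes 3.17% were called between NHD13/MSI2 and NHD13, 11.0% between NHD13/MSI2 and control, 1.03% between NHD13 and control and 8.90% in the joint test. At an unadjusted p under 0.05, 2, 4 and 0 of the 9 genes were counted in the 3 comparisons, against 21.7%, 32.8% and 13.5% of all tested genes. DESeq2 called 0, 1 and 0 of them in the same order and 1 in the joint test, where it called 9.63%, 19.4%, 4.45% and 19.8% of all tested genes. The 1 gene was Ccng2 in both cases. The libraries of the compared groups did not overlap in 4 of the 9 genes between NHD13/MSI2 and NHD13 (Foxo3, Foxo4, Btg1 and Ccng2), 4 between NHD13/MSI2 and control (Foxo3, Foxo4, Ccng2 and Klf6) and 0 between NHD13 and control, against 29.9%, 35.7% and 37.4% of all tested genes. The median log2 fold change of the 9 genes was -0.56, -0.43 and 0.10, beside -0.03, -0.01 and 0.02 over all tested genes. Comparisons that involve the same group share its libraries and are not independent of each other. The plot of fitted differences shows how wide the intervals are.

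**Figure D1:**
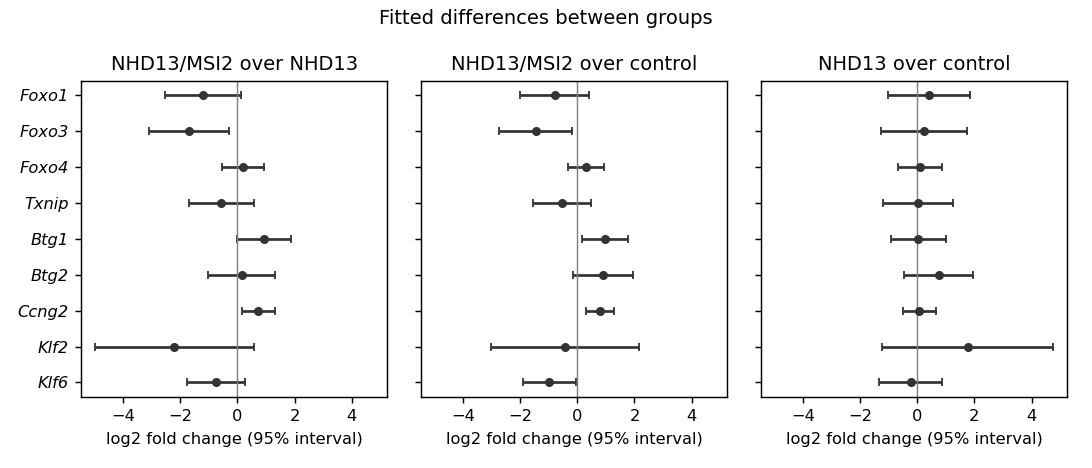
Fitted log2 fold change (x axis) of each of the 9 genes (y axis) in the 3 comparisons, as points with 95% intervals from edgeR's quasi-likelihood fit of 9 libraries. Ccng2 and Foxo3 lie off 0 with their intervals in both comparisons of NHD13/MSI2, and Klf2 has the widest intervals, from -4.97 to 0.58 over NHD13.

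The sequences just upstream of the RefSeq starts of 4 of the genes are shown. The forkhead motif GTAAACA, which FoxO proteins bind, was searched in the promoters of the set. RefSeq (GRCm38.p6) gave a promoter for 8 of the 9 genes, and Foxo4 was not in the table. In windows of 300 bases around the start, GTAAACA on either strand was found in 2 of these 8, Txnip and Btg1, and in 3.65% of 32851 mouse promoters. The 250 bases before the start are printed for Txnip (chr3:96557707-96557956, + strand), Btg1 (chr10:96616751-96617000, + strand), Btg2 (chr1:134079156-134079405, - strand) and Ccng2 (chr5:93267323-93267572, + strand), each 5′ to 3′ on the strand of the gene. Capitals mark GTAAACA or its reverse complement, TGTTTAC, in Txnip and Btg1, and TGACGTCA, the cyclic AMP response element, in Btg2. Ccng2 had no match to either and is shown for comparison, as the gene with the smallest adjusted p. Its window lies within the gene as placed by GENCODE M21, which starts at 93267257, so bases before that start were not searched.
Txnip: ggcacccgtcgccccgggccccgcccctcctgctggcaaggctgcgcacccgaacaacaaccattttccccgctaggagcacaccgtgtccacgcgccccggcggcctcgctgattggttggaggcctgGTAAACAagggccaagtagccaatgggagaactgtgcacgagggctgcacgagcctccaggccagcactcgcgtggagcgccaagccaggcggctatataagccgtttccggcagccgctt
Btg1: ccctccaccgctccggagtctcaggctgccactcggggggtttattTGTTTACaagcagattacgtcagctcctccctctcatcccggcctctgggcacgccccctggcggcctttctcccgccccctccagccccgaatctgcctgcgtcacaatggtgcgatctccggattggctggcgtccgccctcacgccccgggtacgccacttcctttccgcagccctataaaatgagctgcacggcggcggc
Btg2: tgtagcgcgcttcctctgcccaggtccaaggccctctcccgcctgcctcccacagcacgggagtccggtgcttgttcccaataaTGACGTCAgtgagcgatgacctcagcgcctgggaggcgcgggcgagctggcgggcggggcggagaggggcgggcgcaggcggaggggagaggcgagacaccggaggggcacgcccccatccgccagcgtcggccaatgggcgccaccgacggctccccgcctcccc
Ccng2: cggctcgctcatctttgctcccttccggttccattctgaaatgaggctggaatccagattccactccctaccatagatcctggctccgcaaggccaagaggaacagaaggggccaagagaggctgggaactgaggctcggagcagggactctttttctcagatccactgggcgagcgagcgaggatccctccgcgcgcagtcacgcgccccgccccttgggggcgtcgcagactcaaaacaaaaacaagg
Counted from the start, the match of Txnip began at base -121 and that of Btg1 at base -204. Other motifs were searched after the values were seen. TGACGTCA was found in Btg2, at base -166, and in 1.79% of all promoters, and CACGTG, an E-box, was found in Klf6, at base -43, and in 7.15%. TTGCGTCA (0.49% of all promoters) and the CArG box (1.63%), the site of serum response factor, were found in none of the 8. A match describes letters in this window and not binding.

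**Figure D2:**
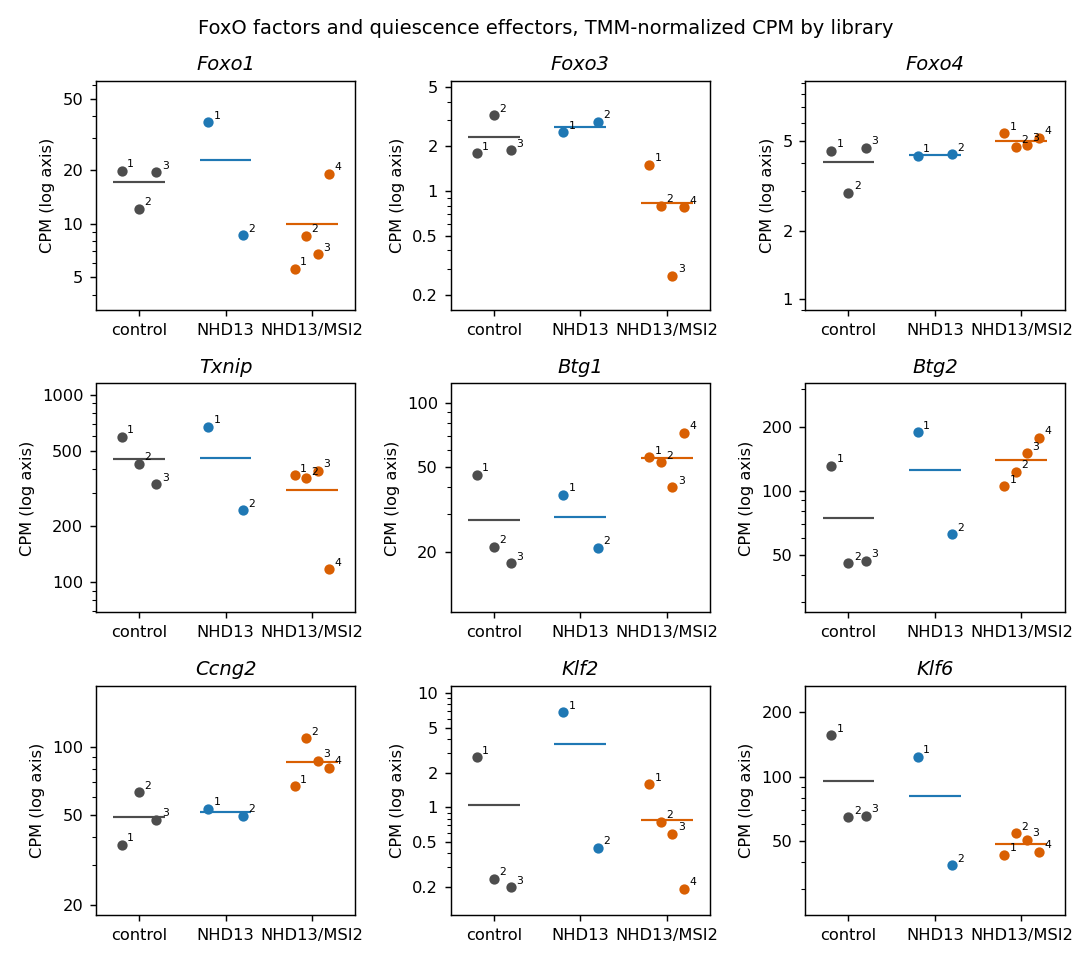
TMM-normalized CPM (y axis, log scale) of each of the 9 genes in each library, by group (x axis), with the replicate number beside each point and a line at the group mean. The 4 NHD13/MSI2 libraries lie above the 5 others in Foxo4 and Ccng2 and below them in Foxo3, and replicate 1 of control and of NHD13 lies above the rest of its group in Btg2, Klf2 and Klf6.

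Of the FoxO factors, Foxo3 had lower levels in the libraries labelled NHD13/MSI2 than in all the others, Foxo4 had slightly higher ones, and Foxo1 spread widely within groups. None of these differences passed the test. Foxo1 lies on chromosome 3 (52268336 to 52353221, + strand, GRCm38, GENCODE M21). It was at 19.8, 12.1 and 19.4 CPM in control replicates 1 to 3, 37.0 and 8.60 in NHD13 replicates 1 and 2, and 5.59, 8.53, 6.74 and 19.0 in NHD13/MSI2 replicates 1 to 4. Its groups overlapped in every comparison, because NHD13 replicate 2 was low and NHD13/MSI2 replicate 4 was as high as the controls. The log2 fold change of NHD13/MSI2 was -1.20 ± 0.59 (SE) over NHD13 (edgeR adjusted p = 0.283) and -0.79 ± 0.54 over control (edgeR adjusted p = 0.353). Without NHD13/MSI2 replicate 4 these were -1.69 and -1.29 (edgeR adjusted p = 0.0644 and 0.0718), and without NHD13 replicate 1 the first turned to 0.24. Of the 50-base stretches of its transcripts, 6.8% also occur in transcripts of other genes, mostly on the opposite strand in Gm20402, and without a stated strand setting in the counting such reads cannot be told apart.

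Foxo3, the FoxO factor most closely linked to stem cell maintenance, lies on chromosome 10 (42181841 to 42276755, - strand). It had 44, 68 and 47 counts in control, 54 and 59 in NHD13, and 29, 16, 6 and 12 in NHD13/MSI2. In CPM these were 1.80, 3.23 and 1.88, then 2.48 and 2.91, then 1.5, 0.798, 0.271 and 0.779. All 4 libraries labelled NHD13/MSI2 were below the 5 others. They lay together on 1 side of the 5 others in 3 of the 9 genes (Foxo3, Foxo4 and Ccng2), against 19.2% of all tested genes. Its log2 fold change was -1.69 ± 0.62 over NHD13 (95% interval -3.09 to -0.28, edgeR adjusted p = 0.144) and -1.45 ± 0.57 over control (-2.74 to -0.17, edgeR adjusted p = 0.108), which did not pass the test. Leaving out 1 library at a time kept both negative, from -2.11 to -1.39 and from -1.89 to -1.13. NHD13 and control differed by 0.23 ± 0.67 (edgeR adjusted p = 0.967).

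Foxo4 lies on chromosome X (101254528 to 101260873, + strand) and was the steadiest of the 9 genes in the libraries of NHD13 and NHD13/MSI2. It was at 4.5, 2.94 and 4.64 CPM in control, 4.28 and 4.35 in NHD13, and 5.38, 4.69, 4.80 and 5.13 in NHD13/MSI2. The libraries labelled NHD13/MSI2 were above the 5 others by a narrow margin. Its log2 fold change was 0.21 ± 0.32 over NHD13 (edgeR adjusted p = 0.771) and 0.31 ± 0.29 over control (edgeR adjusted p = 0.501), so neither passed the test. The second was 0.13 without control replicate 2, and 0.80 among libraries with Y-linked counts, where control replicate 2 is the only control. For this X-linked gene the sex of the cells and the group cannot be told apart in full. Its interval over NHD13, -0.52 to 0.94, leaves room for a change in either direction.

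Per length of exon, the balance among the FoxO transcripts differed from library to library. On the scale of CPM per kb, Foxo1 made up 57.0% ± 3.98 (SD, n = 3) of the sum of Foxo1, Foxo3 and Foxo4 in control, Foxo4 33.4% ± 1.68 and Foxo3 9.56% ± 5.53. In NHD13 (n = 2) the share of Foxo1 was 73.3% in replicate 1 and 37.8% in replicate 2. In NHD13/MSI2 (n = 4) Foxo4 had the larger share in replicates 1 to 3, with 64.7%, 55.2% and 62.8%, whereas replicate 4 had 39.1% Foxo4 and 58.1% Foxo1. The group mean of Foxo3 was 4.25% ± 2.92 in NHD13/MSI2. The order of Foxo1 and Foxo4 was thus turned around in 3 of the 4 libraries labelled NHD13/MSI2 and in NHD13 replicate 2, where Foxo4 had 47.5%. These shares were given no test. The 4th FoxO gene, Foxo6, did not pass the filter on low counts.

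**Figure D3:**
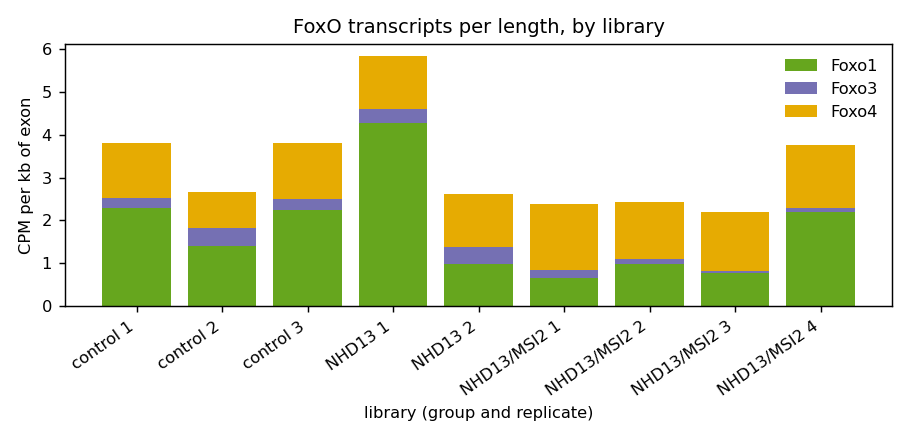
CPM per kb of exon (y axis) of Foxo1, Foxo3 and Foxo4, stacked in bars from 0 for each of the 9 libraries (x axis). The sum is highest in NHD13 replicate 1, at 5.82, where Foxo1 makes up most of it, and Foxo4 is the larger part in NHD13 replicate 2 and in NHD13/MSI2 replicates 1 to 3.

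Txnip, an arrestin-like protein whose gene responds to glucose, was the most abundant of the 9 genes and differed more within groups than between them. It lies on chromosome 3 (96557957 to 96561883, + strand), and its promoter above holds GTAAACA. It was at 596, 429 and 333 CPM in control, 675 and 242 in NHD13, and 372, 358, 392 and 117 in NHD13/MSI2. NHD13 replicate 1 was the highest library and NHD13/MSI2 replicate 4 the lowest, and the groups overlapped. Its fitted difference in NHD13/MSI2 was, on the log2 scale, -0.56 ± 0.51 over NHD13 (edgeR adjusted p = 0.584) and -0.55 ± 0.45 over control (edgeR adjusted p = 0.449), and without replicate 4 both were -0.27. Of its 50-base stretches, 15.7% also lie in Gm15441 on the opposite strand, whose row had 31 to 51 counts, so reads of the pair cannot be told apart in that stretch. Txnip is also the 1 gene of the set whose row depends on the order of the names, since the row it labels as deposited holds 0 counts.

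Btg1 and Btg2 were both high in every library labelled NHD13/MSI2, and also in replicate 1 of control and of NHD13. Btg1, the other gene with the forkhead motif, lies on chromosome 10 (96617006 to 96622809, + strand). It was at 45.8, 21.1 and 17.6 CPM in control, 37.0 and 20.8 in NHD13, and 55.3, 52.4, 40.1 and 72.3 in NHD13/MSI2. All 4 libraries labelled NHD13/MSI2 were above both NHD13 libraries, and control replicate 1 lay among them. On the log2 scale the difference was 0.93 ± 0.42 over NHD13 (-0.02 to 1.87, edgeR adjusted p = 0.239) and 0.97 ± 0.36 over control (0.15 to 1.79, edgeR adjusted p = 0.0959). Leaving out 1 library at a time gave 0.61 to 1.43 over NHD13 (edgeR adjusted p up to 0.628) and 0.72 to 1.51 over control (up to 0.293, by edgeR), the highest without control replicate 1 (edgeR adjusted p = 0.017) and the lowest without control replicate 3. A further gene, Gm14519, shares 2.49% of the 50-base stretches of Btg1 on the same strand, and the pseudogene rows Btg1-ps1 and Btg1-ps2 had 0 counts.

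Btg2, which p53 and growth signals induce, lies on chromosome 1 (134075170 to 134079120, - strand). It was at 131, 45.5 and 46.8 CPM in control, 188 and 62.3 in NHD13, and 105, 123, 150 and 178 in NHD13/MSI2. Control replicate 1 and NHD13 replicate 1 reached the level of the libraries labelled NHD13/MSI2, while the other 3 libraries were below all of these. On the log2 scale Btg2 differed by 0.15 ± 0.52 over NHD13 (edgeR adjusted p = 0.91) and 0.90 ± 0.47 over control (-0.15 to 1.95, edgeR adjusted p = 0.215). With library totals alone and no scaling factors the first was -0.08, a setting that also moved the median of all tested genes to -0.22. With control replicate 1 and NHD13 replicate 1 both left out, a choice made after their values were seen, Btg2 was 1.63 higher in NHD13/MSI2 than in control (edgeR adjusted p = 0.00822) and Btg1 1.55 higher (edgeR adjusted p = 0.012), so that Btg2 alone of the 9 genes passed the threshold there. Over control, the difference of Btg2 was 1.59 without control replicate 1 alone (edgeR adjusted p = 0.043) and 0.65 without control replicate 2 or 3 (edgeR adjusted p = 0.489 and 0.504).

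Ccng2, the cyclin that FoxO factors are known to induce, had the smallest adjusted p of the set. It lies on chromosome 5 (93267257 to 93276231, + strand). It was at 36.9, 63.0 and 47.6 CPM in control, 53.3 and 49.7 in NHD13, and 67.0, 109, 86.6 and 80.6 in NHD13/MSI2. All 4 libraries labelled NHD13/MSI2 were above the 5 others, with the lowest of them close to control replicate 2. The difference of NHD13/MSI2 was 1.74-fold over control, a log2 fold change of 0.80 ± 0.22 (0.31 to 1.29), and edgeR's adjusted p of 0.0279 did not pass 0.01, whereas DESeq2's, 0.00488, did. Over NHD13 it was 0.73 ± 0.25 (0.17 to 1.30, edgeR adjusted p = 0.114), and NHD13 and control differed by 0.07 ± 0.25 (edgeR adjusted p = 0.979). The joint test of the 3 groups gave an edgeR adjusted p of 0.0424. Leaving out 1 library at a time gave 0.63 to 1.02 over control and 0.62 to 0.86 over NHD13, with edgeR's adjusted p up to 0.104 and 0.313. Among libraries with Y-linked counts, where control replicate 2 is the only control, Ccng2 was at 0.48 over control, its lowest value in any setting. With no scaling factors it was at 0.59 over control and 0.54 over NHD13 (edgeR adjusted p = 0.103 and 0.27).

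Klf2 and Klf6 were high in replicate 1 of control and of NHD13 and showed no common level within those groups. Klf2, on chromosome 8 (72319033 to 72321656, + strand), had 67, 5 and 5 counts in control, 148 and 9 in NHD13, and 31, 15, 13 and 3 in NHD13/MSI2. In CPM these were 2.74, 0.237 and 0.200, then 6.81 and 0.445, then 1.6, 0.748, 0.588 and 0.195. Within a group its highest library was 8.23 to 15.3 times its lowest, and several libraries were near the floor of 3 counts. For NHD13/MSI2 the log2 fold change was -2.20 ± 1.24 over NHD13 (edgeR adjusted p = 0.351) and -0.43 ± 1.15 over control (edgeR adjusted p = 0.837), and the first turned to 0.84 without NHD13 replicate 1 and the second to 1.82 without control replicate 1. No direction can be given for Klf2 from these libraries.

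Klf6, on chromosome 13 (5861482 to 5870394, + strand), was well above the floor. It was at 156, 64.8 and 65.7 CPM in control, 124 and 38.6 in NHD13, and 43.3, 54.5, 51.0 and 44.8 in NHD13/MSI2. The libraries labelled NHD13/MSI2 were below the 3 controls and lay between the NHD13 libraries. The log2 fold change was -0.98 ± 0.41 over control (-1.90 to -0.06, edgeR adjusted p = 0.129) and -0.75 ± 0.46 over NHD13 (edgeR adjusted p = 0.394). Without control replicate 1 the former was -0.43 (edgeR adjusted p = 0.519), and without NHD13 replicate 1 the latter was 0.35. Between NHD13 and control it was -0.23 ± 0.49 (edgeR adjusted p = 0.944).

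Between NHD13 and control no member came near the threshold, the smallest adjusted p by edgeR being 0.669, for Btg2. Of the 9 fitted values, 8 were positive and 1 negative. Several were near 0, such as 0.02 for Txnip, 0.04 for Btg1 and 0.07 for Ccng2, and no shared direction is read from them. The libraries of 1 group differed more than these values. NHD13 replicate 1 exceeded replicate 2 by over 2 times in 5 of the 9 genes (Foxo1, Txnip, Btg2, Klf2 and Klf6), against 15.2% of all tested genes. Control replicate 1 exceeded both other controls by over 2 times in 4 of the 9 (Btg1, Btg2, Klf2 and Klf6), against 2.81%. Both held for Btg2, Klf2 and Klf6, against 1.61% of all tested genes. These genes were noticed for this after their values were seen.

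Immediate early genes are transcripts that cells make within minutes of stimulation. Many were also higher in replicate 1 of control and of NHD13 than in the rest of the group. Of the 16 of 20 listed that were tested, 8 were over 2 times higher in NHD13 replicate 1 than in replicate 2, against 15.2% of all tested genes. In control replicate 1, 9 were over 2 times higher than in both other controls, against 2.81%, and 6 did both, against 1.61%. Fos was at 531, 43.9 and 58.9 CPM in control, 26 and 7.31 in NHD13 and 3.57 to 16.9 in NHD13/MSI2. Egr1 was at 82.1, 6.88 and 5.76, then 7.73 and 2.67, then 2.44 to 4.5. The summed list was at 1608, 376 and 388 CPM in control, 394 and 213 in NHD13 and 141 to 420 in NHD13/MSI2. By this sum only control replicate 1 stood out, and NHD13 replicate 1 was near control replicates 2 and 3. In control replicate 1 Btg2 was at 131 CPM and Fos at 531, and in the libraries labelled NHD13/MSI2 Btg2 was at 105 to 178 and Fos at 3.57 to 16.9. Between NHD13/MSI2 and control, Fosl2 rose (1.22 ± 0.21, edgeR adjusted p = 0.00355) and Fos fell (-4.84 ± 1.01, edgeR adjusted p = 0.00849), beside 11.0% of all tested genes called, and the list's median was -0.96. In this comparison the Fos call was lost in 7 of the 9 fits that left out 1 library and the Fosl2 call in the 3 that left out a control, with edgeR's adjusted p up to 0.0305 and 0.0214. Without control replicate 1, Fos was at -2.80. In the other comparisons 0 genes of the list were called by edgeR or DESeq2. At an unadjusted p under 0.05 there were 2 (over NHD13) and 6 (NHD13 over control), against 21.7% and 13.5% of all tested genes. The part of these genes in the levels of Btg1, Btg2, Klf2 and Klf6 was not tested.

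**Figure D4:**
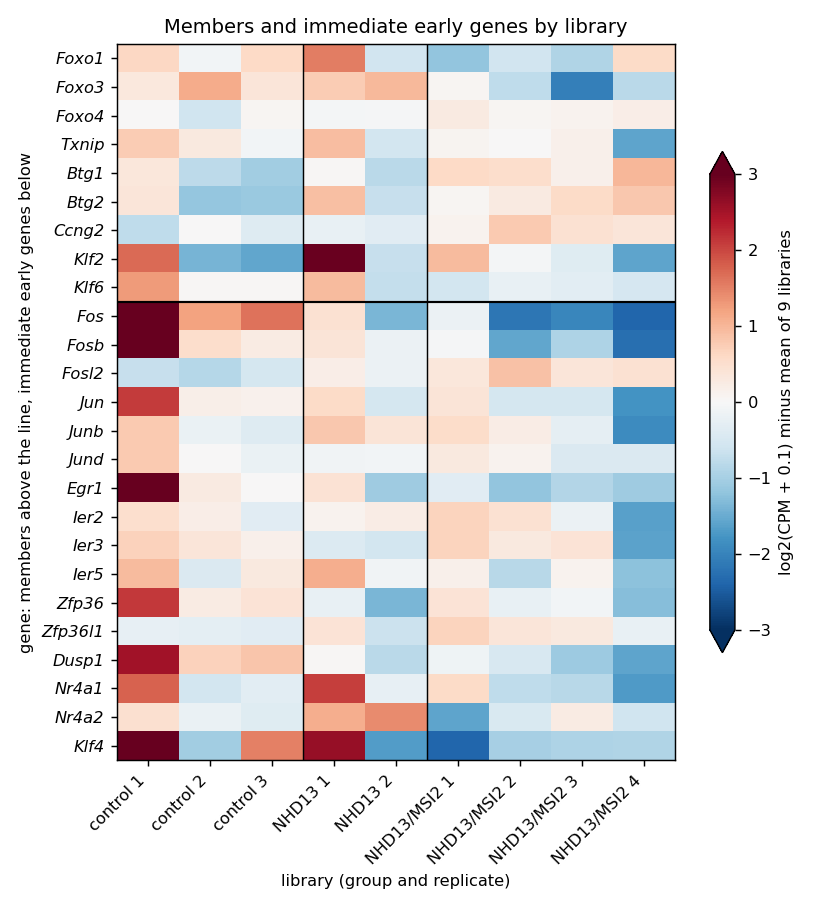
Colour gives log2(CPM + 0.1) minus the gene's mean over 9 libraries, for the 9 members (rows above the line) and the 16 tested immediate early genes (rows below it), with libraries in columns and values past 3 or -3 drawn in the end colour. Control replicate 1 is high in Btg1, Btg2, Klf2 and Klf6 and in most early genes, and the libraries labelled NHD13/MSI2 are above the mean in Btg1, Btg2 and Ccng2 and below it in Fos and Egr1.

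On the scale of CPM per kb of exon, which allows levels to be compared between genes, the order in control was Txnip (145 ± 42.6, SD, n = 3), Btg2 (27.1 ± 17.8), Klf6 (21.7 ± 11.9), Ccng2 (9.01 ± 2.40), Btg1 (5.33 ± 2.91), Foxo1 (1.97 ± 0.497), Foxo4 (1.16 ± 0.270), Klf2 (0.573 ± 0.788) and Foxo3 (0.304 ± 0.106). The ranges of the neighbours Btg2 and Klf6, Ccng2 and Btg1, Foxo4 and Klf2, and Klf2 and Foxo3 overlapped, and those of the other neighbours did not. In NHD13/MSI2 (n = 4) the order was Txnip (99.2 ± 41.4), Btg2 (50.7 ± 11.7), Ccng2 (15.7 ± 3.17), Klf6 (11.0 ± 1.19), Btg1 (10.4 ± 2.51), Foxo4 (1.43 ± 0.0906), Foxo1 (1.15 ± 0.706), Klf2 (0.424 ± 0.322) and Foxo3 (0.111 ± 0.0667). Ccng2 thus stood before Klf6 and Foxo4 before Foxo1, but in both pairs the ranges over the 4 libraries overlapped. In NHD13 the 2 libraries of Txnip were 77.3 and 216 on this scale, and Foxo3 had the lowest mean (0.356 ± 0.0402, SD), although Klf2 was at 0.241 in replicate 2. The lengths are those of GENCODE M21 and need not be the gene models the authors counted.

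Of 34 genes listed as FoxO targets, 1 was called between NHD13/MSI2 and NHD13, 4 between NHD13/MSI2 and control and 1 between NHD13 and control, against 3.17%, 11.0% and 1.03% of all tested genes, and nothing particular to the list is read from these counts. Pmaip1, which encodes the death-promoting protein Noxa, rose over control in both other groups. It was at 1.88 to 2.25 CPM in control, 21.6 and 38.1 in NHD13 and 42.5 to 121 in NHD13/MSI2, log2 fold changes of 3.89 ± 0.45 (edgeR adjusted p = 0.00196) and 5.13 ± 0.44 (edgeR adjusted p = 0.000112). Bcl2l11, which encodes the related protein Bim, rose from 13.5 to 18.7 CPM in control to 23.6 to 37.2 in NHD13/MSI2 (1.02 ± 0.21, edgeR adjusted p = 0.00726), and NHD13 was at 30.9 and 34.2. Tnfsf10, the death ligand TRAIL, fell from 81.9 to 87.1 CPM in control to 18.6 to 32.9 in NHD13/MSI2 (-1.69 ± 0.19, edgeR adjusted p = 0.000419), with NHD13 at 40.7 and 34.7. S1pr1, a receptor for exit of cells into blood and a target shared by FoxO and Klf2, was at 22.1 to 29.0 CPM in control, 59.7 and 7.90 in NHD13 and 0 to 1.13 in NHD13/MSI2. On the log2 scale it fell by 6.04 from NHD13 (SE 1.0, edgeR adjusted p = 0.00699) and fell by 5.62 from control (SE 0.95, edgeR adjusted p = 0.0031), and it had 0 counts in NHD13/MSI2 replicate 4.

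The remaining targets did not pass edgeR's test, among them the cell cycle inhibitors Cdkn1a and Cdkn1b and the antioxidant enzymes Sod2 and Cat. For Cat between NHD13/MSI2 and control edgeR's adjusted p was 0.0342, and it was called by DESeq2 and by edgeR without NHD13/MSI2 replicate 4. The list's median log2 fold change was 0.02, 0.22 and 0.01 in the 3 comparisons, beside -0.03, -0.01 and 0.02 over all tested genes. The called targets moved in both directions, with Pmaip1 and Bcl2l11 up and Tnfsf10 and S1pr1 down. DESeq2 called 3, 7 and 3 targets in the 3 comparisons, against 9.63%, 19.4% and 4.45% of all tested genes. Leaving out 1 library at a time gave 0 to 2, 2 to 8 and 0 to 2 called targets by edgeR. Over all tested genes these fits called 128 to 646, 647 to 2066 and 38 to 251. Over control, the calls of Pmaip1 and Tnfsf10 in NHD13/MSI2 were kept in all 9 such fits, that of Bcl2l11 was lost in 6 (edgeR adjusted p up to 0.0405) and that of S1pr1 in 4 (up to 0.0125, by edgeR), each control among them. Over NHD13, the call of S1pr1 was kept in 2 of these fits, without NHD13 replicate 2 or NHD13/MSI2 replicate 4, and its log2 fold change was -3.92 without NHD13 replicate 1 (edgeR adjusted p = 0.0634). The call of Pmaip1 in NHD13 was lost without NHD13 replicate 2 or any 1 control (edgeR adjusted p up to 0.0178). Among the libraries with Y-linked counts, which leave 1 control, 0 targets were called by edgeR in any comparison, and over control Pmaip1 was at 5.25 (edgeR adjusted p = 0.024) and Tnfsf10 at -1.61 (edgeR adjusted p = 0.0364).

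**Figure D5:**
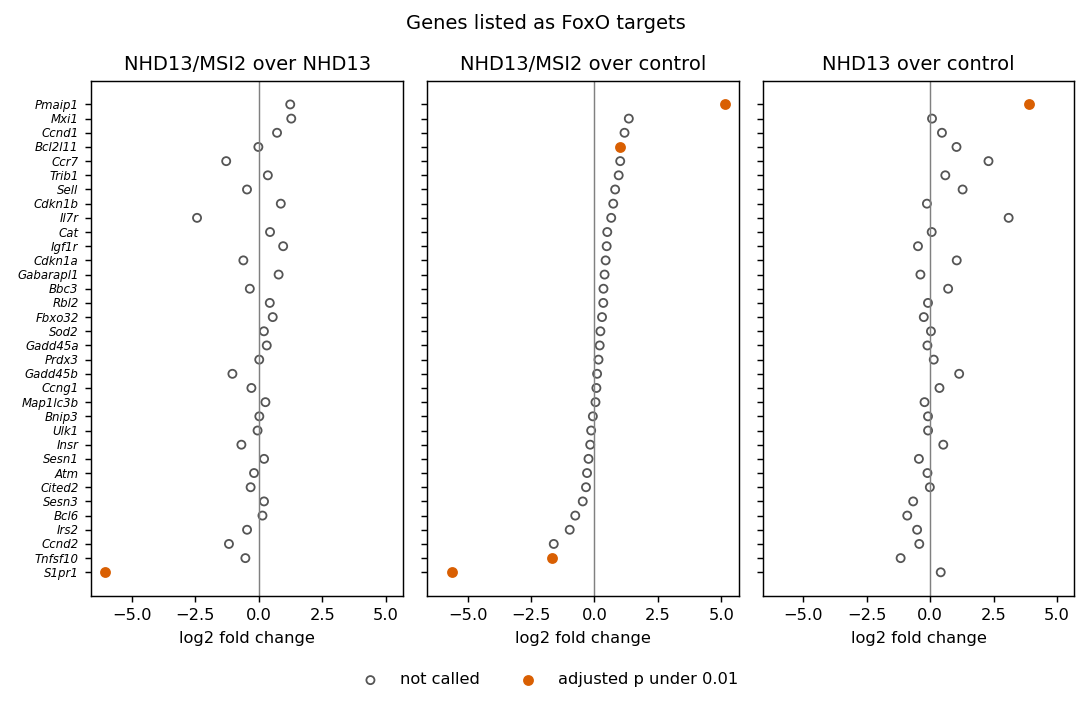
Log2 fold change (x axis) of the 34 genes listed as FoxO targets (y axis, ordered by NHD13/MSI2 over control) in the 3 comparisons, with filled points for an edgeR adjusted p under 0.01 and open points for the others. Pmaip1 and S1pr1 lie at the ends of the middle panel, at 5.13 and -5.62, and most targets lie near 0.

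Upstream of the FoxO factors, 0 of 29 tested regulators (the PI3K subunits, AKT kinases, phosphatases, mTOR complexes, 14-3-3 proteins and others) were called by edgeR in any comparison. At an unadjusted p under 0.05 there were 7, 8 and 2, DESeq2 called 3, 4 and 1, and edgeR without 1 library called 0 to 1 in each. Over all tested genes the shares were 21.7%, 32.8% and 13.5% at an unadjusted p under 0.05, and 9.63%, 19.4% and 4.45% for DESeq2. The regulators' median log2 fold change was -0.03, 0.03 and -0.05, beside -0.03, -0.01 and 0.02 over all tested genes. Of the relatives of the 9 genes, 18 of 21 listed were tested. Between NHD13/MSI2 and control edgeR called 1, Klf12, where 11.0% of all tested genes were called, and it called 0 in the other comparisons. There were 3, 7 and 2 relatives at an unadjusted p under 0.05, against 21.7%, 32.8% and 13.5% of all tested genes. DESeq2 called 2, 3 and 2, among them Klf12 in each comparison and otherwise Klf9, Klf4 or Klf7. Klf12 was at 7.61, 3.89 and 10.6 CPM in control, 0.184 and 0.741 in NHD13 and 1 count in all of NHD13/MSI2. Against the floor of 3 counts per library this was at least 46.3-fold lower in NHD13/MSI2 than in control. The call of Klf12 was kept in all 9 fits without 1 library, in which 1 to 3 relatives were called, and was lost among the libraries with Y-linked counts (edgeR adjusted p = 0.0364). The relatives' median was 0.07, -0.00 and -0.10.

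Of the thioredoxin system, which Txnip inhibits, 12 of 13 listed genes were tested. By edgeR 1 was called, between NHD13/MSI2 and NHD13, where 3.17% of all tested genes were called. Prdx4, a peroxiredoxin of the endoplasmic reticulum, fell in NHD13/MSI2 against NHD13 (-1.12 ± 0.17, edgeR adjusted p = 0.00566). It was at 59.1 to 69.7 CPM in control, 103 and 72.0 in NHD13 and 36.0 to 44.4 in NHD13/MSI2, and the call was lost in 7 of 9 fits without 1 library (edgeR adjusted p up to 0.0621). Txn1, the thioredoxin that Txnip binds, was at 137 to 181 CPM in the 5 libraries of control and NHD13 and at 50.6 to 130.5 in those labelled NHD13/MSI2, and did not pass the test. DESeq2 called 1, 2 and 0 of the list, against 9.63%, 19.4% and 4.45% of all tested genes. The list's median was -0.01, -0.05 and -0.01. Of 20 proliferation genes, 0 were called by edgeR in the 3 comparisons and 0, 1 and 0 by DESeq2. At an unadjusted p under 0.05 there were 2, 5 and 4, against 21.7%, 32.8% and 13.5% of all tested genes. Without NHD13/MSI2 replicate 4 edgeR called 1 of the 20 over control. The list's median was 0.06, -0.25 and -0.33, beside -0.03, -0.01 and 0.02 over all tested genes. Of the 20, 18 and 19 were lower in NHD13/MSI2 and in NHD13 than in control, and this shared direction was not tested.

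Genes with the pattern most like a member were found by the root mean square of the difference in centred log2 CPM over the 9 libraries, among 10972 genes with a mean of at least 50 counts. Nearest to Foxo1 were Gfi1b (0.31) and Bco2 (0.32), to Foxo3 Mtss1 (0.42) and Acy3 (0.43), and to Foxo4 Tjap1 (0.11) and Gbf1 (0.13). Txnip was nearest to Fmo5 (0.29) and Selenbp1 (0.30), Btg1 to Usp20 (0.25) and Uba7 (0.26), and Btg2 to Nhsl2 (0.35) and Stk10 (0.37). Klf6 was nearest to Krba1 (0.26) and Casp12 (0.27), and Klf2 to Nr4a1 (0.69), an immediate early gene, and Hspa1a (0.86), a heat shock gene. Of these 8 members, Klf2 had the poorest matches and Foxo4 the closest, beside spreads of 1.5 and 0.23 of the genes themselves over the libraries. The likeness is a description of 9 libraries that share depth and sorting.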

How the data were processed

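RNA-seq counts of LSK cells from 3 control, 2 NHD13 and 4 NHD13/MSI2 samples were analysed, grouped by sample title. The authors deposited raw counts (whole numbers, not normalized), with a row for each gene symbol and a column for each library. STAR, HTSeq, DESeq and mm9 are named in the submitters' processing notes, without versions or roles, and the paper's methods name DESeq for testing. The strand setting is not given in the sources used here. Names that a spreadsheet had turned into dates of March stand in 11 rows for 13, and 2 blank rows end the table, so the 11942 names after them were moved down by 2 rows. Only at this move were Xist and Uty both high (up to 21712 and 2917 counts) and 0 of 83 ribosomal protein genes at 0. The 13 March rows (0.0253% to 0.0323% of a library) were left out.

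Counts were filtered (filterByExpr by group), TMM-scaled and tested by the two-sided quasi-likelihood F test of edgeR 4.0.16 in R 4.3.3, all 9 libraries in 1 model of 3 groups, with 6 residual and 3.38 prior degrees of freedom. Genes were called at an adjusted p under 0.01 (Benjamini-Hochberg, all 13355 genes tested). DESeq2 1.42.0 was an alternative. SEs are derived from the F statistic. CPM are TMM-normalized. The floor of 3 counts is 0.130 to 0.156 CPM before TMM scaling, for counting error only. All members are named, and of each list the called genes with a mean of at least 50 counts, at most 4 a direction and comparison. Cdkn1a, Cdkn1b, Sod2, Cat and Txn1 were named after their values were seen. The genes most like Ccng2 are not reported here. The members and lists were chosen with earlier results of these data known. Positions, lengths and shared 50-base stretches are from GENCODE M21 on GRCm38, not the authors' build. The fit was tested on simulated data. Alternatives changed the test, scaling, filter, threshold, dispersion, pairing, samples or names, and left out each library. Replicate numbers were not used to pair the samples in the main fit (values in the closing section).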

Additional observations from a re-analysis of the deposited data

Results flagged for a closer look

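Txnip in NHD13/MSI2 replicate 4 was at 117 CPM, far from the other 3 libraries of its group (358 to 392 CPM). Its gap to the nearest was 0.878 of the group's range, above Dixon's 95% critical value for 4 samples. Of the 9 genes, examined in the NHD13/MSI2 group alone because the other groups are too small, 1 had such a library, and chance gives about 1 in 20 groups. The same library stood apart from its group over all genes.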

How the results depend on the processing

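With 1 exception the count of members called stayed at 0 in each comparison under the other planned fits, the exception being Ccng2: 1 member between NHD13/MSI2 and control and 1 in the joint test with DESeq2, and 1 in each at an adjusted p under 0.05. Without control replicate 1 and NHD13 replicate 1 together, chosen after seeing the data, 1 member (Btg2, 1.63) was called between NHD13/MSI2 and control. Leaving out 1 library at a time gave 0 in each. Without 1 NHD13 library the lone other was assumed to vary like the other groups. Of 558 alternative log2 fold changes of members, 517 kept direction and side of the threshold, 3 newly passed it and 38, of 15 of the 27 values, changed sign, none of these called. Under no scaling factors, which moved the median of all genes to -0.22 in both NHD13/MSI2 comparisons, Btg2 over NHD13 was -0.076. Without the library pair above, NHD13/MSI2 over NHD13 was 0.24 for Foxo1, 0.38 for Txnip, 0.83 for Klf2 and 0.35 for Klf6, Klf2 over control was 1.85, and NHD13 over control was -0.87 for Foxo1, -0.65 for Txnip and -0.14 for Ccng2. Among libraries with Y-linked counts, Klf2 over control was 1.74, and NHD13 over control -0.25 for Foxo3, -0.29 for Ccng2 and 0.33 for Klf6. DESeq2 and RLE factors gave -0.0028 for Txnip in NHD13 over control. Without 1 library, NHD13/MSI2 over NHD13 ran from -1.85 to 0.24 for Foxo1, -1.09 to 0.38 for Txnip, -0.39 to 1.19 for Btg2, -3.06 to 0.84 for Klf2 and -1.31 to 0.35 for Klf6, Klf2 over control from -1.02 to 1.82, and NHD13 over control from -0.99 to 1.10 for Foxo1, -0.084 to 0.21 for Foxo4, -0.91 to 0.56 for Txnip, -0.44 to 0.58 for Btg1, -0.26 to 1.44 for Btg2, -0.10 to 0.28 for Ccng2, -1.25 to 4.02 for Klf2 and -1.30 to 0.36 for Klf6. With names as deposited, the rows named S1pr1 and Prdx4 are other genes (0.20 and 0.37 over NHD13, 0.14 for S1pr1 over control), Txnip was not tested, and the filter at a mean of 50 counts left out Foxo3 and Klf2. The cause of the other changes was not tested.

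Deviations of same-numbered libraries from their group means correlated at -0.072 to 0.19, and not every library correlated best with its own number. The highest of these were 0.19 for replicate 1 and 0.13 for replicate 2 of control and NHD13. The deviations of the 2 NHD13 libraries mirror each other by construction, so these values cannot decide whether the numbers pair the samples. With the replicate number as a block, 0 members were called in each comparison and the joint test, calls over all genes were 203, 1407 and 101 against 423, 1474 and 138, Klf2 over control was 0.84, and NHD13 over control was -0.15 for Foxo3, -0.17 for Txnip and -0.12 for Btg1. DESeq2 called 1286, 2589 and 594 genes in all. With 2 NHD13 libraries that differ by over 2 times in 5 members, differences from NHD13 are poorly fixed, and Klf2 and Foxo3 are limited by low counts.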
